A study of Danio rerio with 10 samples.

Results

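Retinoic acid is a small signal made from vitamin A. Retinol is oxidized to retinal and retinal to retinoic acid, the last step by the Aldh1a retinaldehyde dehydrogenases, while Cyp26 enzymes of the cytochrome P450 family break it down. It acts by binding retinoic acid receptors, which sit on DNA as pairs with retinoid X receptors and turn target genes on or off. In the fish larva it is known for patterning the hindbrain and its Hox genes, the dorsal and ventral eye, the pectoral fin, the heart and the pharyngeal arches.

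The 10 genes described here were 2 synthesis enzymes (aldh1a2 and aldh1a3), a retinal reductase that works against synthesis (dhrs3a), 3 breakdown enzymes (cyp26a1, cyp26b1 and cyp26c1) and 4 receptors (raraa, rarab, rarga and rargb). They were found by gene name among the 25911 genes of the count table, and all 10 had enough counts to be tested beside 23039 genes in all. RNA came from whole zebrafish larvae at 3 days post fertilization (dpf), of 2 groups: can4-/- larvae, homozygous for a mutation in top2a (topoisomerase 2a, which passes one DNA double strand through another), and their WT siblings, both from crosses of heterozygous carriers on the AB background. There were 5 pools a genotype, each of 9 larvae genotyped singly before pooling, so a value is an average over larvae and over every tissue. The mutation is lethal to homozygotes and is carried from fertilization on in all their cells, and maternal top2a mRNA may still be present. Total counts were 30098991 to 38106622 in can4-/- pools and 29281449 to 45544046 in WT pools.

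The mutated gene followed its labels. Normalized counts (raw counts scaled between libraries by TMM factors) of top2a were 635 to 1358 in can4-/- pools, against 8498 to 9082 in WT pools, a log2 fold change of -3.43 ± 0.19 (SE, n = 5 each; adjusted p = 1.44e-09, edgeR). Replicate 2 of can4-/- had the count of 1358 and stood apart from the other mutant pools. The related top2b, which was not mutated, was at -0.46 ± 0.048. A large share of the transcriptome differed between the genotypes: 73.2% of the genes tested passed an adjusted p of 0.05, 36.3% higher and 36.9% lower in can4-/- larvae, with a median log2 fold change of 0.0027 and a median size of 0.437.

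Of the 10 retinoic acid genes, 4 were higher in can4-/- larvae (aldh1a2, dhrs3a, cyp26b1 and cyp26c1), 3 were lower (aldh1a3, rarab and rargb) and 3 did not pass the test (cyp26a1, raraa and rarga), so 70% were called beside 73.2% of all genes. The pools of the 2 genotypes did not overlap for 6 of them, 60% beside 60.8% of all genes. Their median log2 fold change was 0.018 and their median size 0.371. With TMM scaling and all pools, only dhrs3a changed at least 2-fold. Of all genes tested, 20.6% changed at least 2-fold and passed an adjusted p of 0.05. These shares lie near those of all genes and say nothing particular of the 10.

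**Figure D1:**
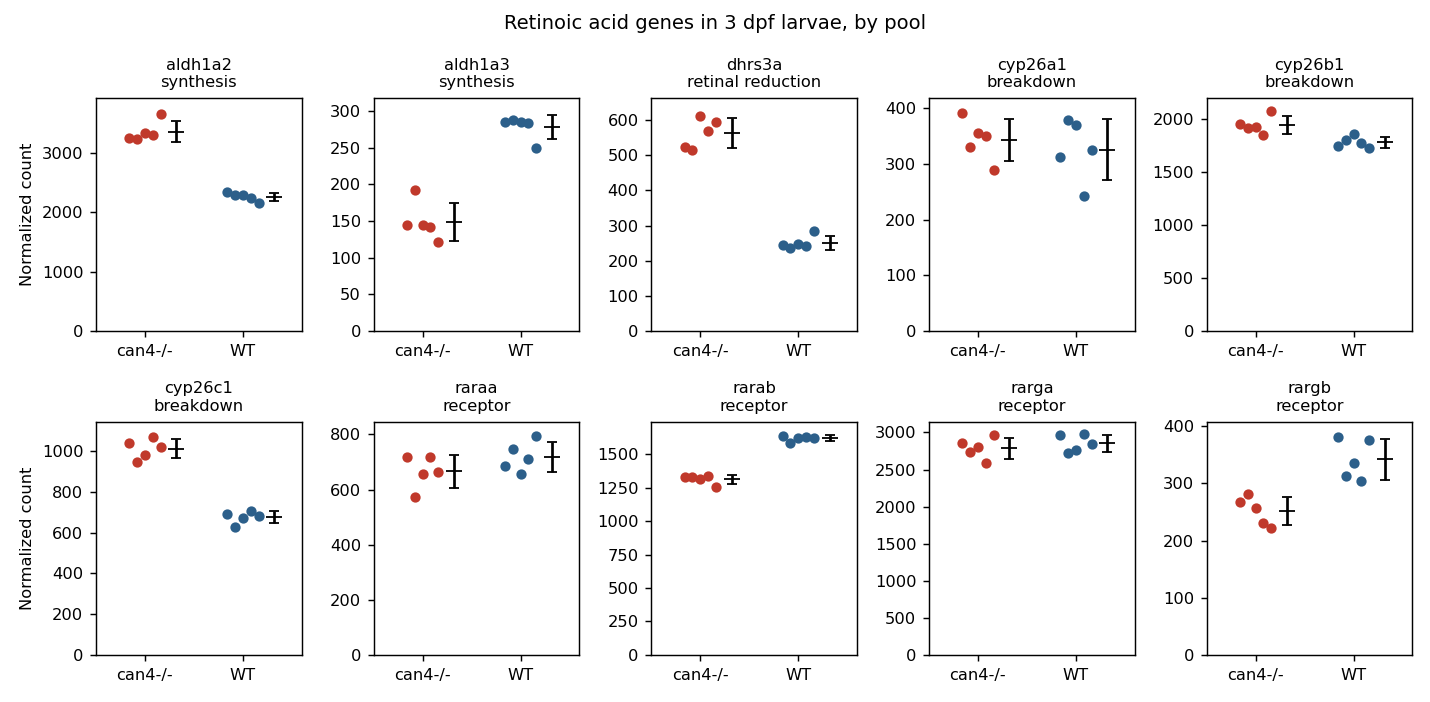
Normalized counts of the 10 genes (vertical axes, each starting at 0) in the 5 can4-/- pools (red, left) and the 5 WT pools (blue, right). Points are pools, and black bars give the mean ± SD beside them. The pools of the genotypes lie apart for aldh1a2, aldh1a3, dhrs3a, cyp26c1, rarab and rargb, and overlap for cyp26a1, cyp26b1, raraa and rarga.

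The 2 synthesis enzymes moved in opposite directions. In the zebrafish eye, aldh1a2 is known as the dorsal and aldh1a3 as the ventral retinaldehyde dehydrogenase, and aldh1a2 is also used in trunk mesoderm and the fin field. Gene aldh1a2 (ENSDARG00000053493, chr7:30326184-30367650 of GRCz11) had normalized counts of 3253, 3230, 3345, 3301 and 3667 in can4-/- pools 1 to 5, against 2340, 2301, 2293, 2237 and 2159 in WT pools 1 to 5. Every can4-/- pool was above every WT pool. It was 1.48-fold higher in can4-/- larvae, a log2 fold change of 0.57 ± 0.043 (SE, n = 5 each; 95% interval 0.47 to 0.66; adjusted p = 3.82e-08, edgeR). As in all bulk samples, more cells of a type and more RNA per cell cannot be told apart here, and neither can fewer cells and less RNA per cell.

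Gene aldh1a3 (ENSDARG00000076933, chr7:9721385-9803154) had 145, 192, 144, 142 and 121 normalized counts in can4-/- pools 1 to 5, against 285, 287, 284, 283 and 250 in WT pools 1 to 5. All can4-/- pools were below all WT pools, and the mutant pools were spread more widely (a coefficient of variation of 17.5%, against 5.71% in WT). The gene fell by 46.3% in can4-/- larvae, with a log2 fold change of -0.90 ± 0.11 (adjusted p = 3.76e-06, edgeR). The mutant pool nearest to WT was replicate 2, the one with more top2a. Without that pool the log2 fold change was -1.01.

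Taken as a ratio within each pool, which no scaling between libraries can change, the 2 enzymes parted further than either did alone. This follows from their opposite changes, each without overlap of pools, so the test of this ratio adds no separate evidence. The log2 ratio of aldh1a3 to aldh1a2 counts was -4.48, -4.07, -4.53, -4.54 and -4.92 in can4-/- pools 1 to 5, against -3.03, -3.00, -3.01, -2.98 and -3.11 in WT pools 1 to 5. The groups did not overlap, and the WT pools lay close together (SD 0.050) beside the can4-/- pools (SD 0.30). The difference was -1.48 on the log2 scale, so that the ratio in can4-/- larvae was 0.358 of that in WT (exact two-sided permutation test, p = 0.00794, the smallest that 5 against 5 pools allow; 0.0212 after Benjamini-Hochberg adjustment over the 8 ratios examined). The level of such a ratio depends on transcript lengths and says nothing by itself; its change between genotypes is what was compared.

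With TMM scaling, the largest change among the 10 genes was in dhrs3a. Its enzyme reduces retinal back to retinol and so draws on the substrate of the Aldh1a enzymes. Gene dhrs3a (ENSDARG00000044982, chr23:21663631-21674679) had 522, 515, 612, 569 and 593 normalized counts in can4-/- pools 1 to 5, against 244, 236, 247, 242 and 284 in WT pools 1 to 5. There was a wide gap between the genotypes, with the lowest can4-/- pool far above the highest WT pool. The gene was 2.25-fold higher in can4-/- larvae (log2 fold change 1.17 ± 0.072, 95% interval 1.01 to 1.32; adjusted p = 4.63e-09, edgeR). Set against aldh1a2 in the same pool, dhrs3a was still higher by 0.60 on the log2 scale (1.51-fold; exact permutation p = 0.00794, adjusted p = 0.0212), with no overlap between the genotypes.

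The 3 breakdown enzymes did not move together. In zebrafish, cyp26a1 is the family member whose transcription answers most directly to retinoic acid and is often read as a gauge of the signal, while cyp26b1 and cyp26c1 are known for restricted domains in the hindbrain, the pharyngeal arches and the eye. Gene cyp26c1 (ENSDARG00000056029, chr17:19522856-19535328) had 1039, 947, 983, 1068 and 1020 normalized counts in can4-/- pools 1 to 5, against 689, 627, 672, 704 and 684 in WT pools 1 to 5. The genotypes did not overlap. It was 49.7% higher in can4-/- larvae, with a log2 fold change of 0.58 ± 0.049 (95% interval 0.48 to 0.69; adjusted p = 9.60e-08, edgeR).

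The change of cyp26b1 was small. Gene cyp26b1 (ENSDARG00000077121, chr7:25323742-25348597) had 1957, 1915, 1931, 1855 and 2081 normalized counts in can4-/- pools 1 to 5, against 1751, 1805, 1859, 1774 and 1729 in WT pools 1 to 5. Of the 5 can4-/- pools, 4 were above every WT pool and 1 overlapped the highest of them. The log2 fold change was 0.13 ± 0.040 (1.09-fold; adjusted p = 0.0119, edgeR). This call depended on how libraries were scaled: by library totals alone, which lowered the median log2 fold change of all genes by 0.17, cyp26b1 was at -0.048 and did not pass (adjusted p = 0.328).

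For cyp26a1 no change was detected. Gene cyp26a1 (ENSDARG00000033999, chr12:8954761-8958353) had 391, 331, 355, 351 and 289 normalized counts in can4-/- pools 1 to 5, against 312, 380, 371, 242 and 325 in WT pools 1 to 5. The ranges overlapped, with 1 can4-/- pool (replicate 1) above every WT pool and 1 WT pool (replicate 4) below every can4-/- pool. It was also the least even of the 10 genes among WT pools, with a coefficient of variation of 10.9% in can4-/- and 16.9% in WT, where counting error alone would give 5.71% and 5.46%. The log2 fold change was 0.071 ± 0.11, and its 95% interval of -0.18 to 0.32 leaves room for a modest change in either direction (adjusted p = 0.592, edgeR). The sign of this value turned without WT replicate 4 (-0.016) and with library totals (-0.10), and it passed in neither case.

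Ratios within pools set the breakdown enzymes against each other, and cyp26a1 against aldh1a2. The log2 ratio of cyp26c1 to cyp26b1 was higher by 0.46 in can4-/- pools (-1.03 to -0.80, against -1.53 to -1.33 in WT pools; exact permutation p = 0.00794, adjusted p = 0.0212). Here the genotypes did not overlap, so cyp26c1 was raised beyond cyp26b1. The ratio of cyp26c1 to cyp26a1 was higher by 0.50 (adjusted p = 0.0423, exact permutation test), while that of cyp26b1 to cyp26a1 differed by 0.041 (adjusted p = 0.706, exact permutation test).

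The ratio of cyp26a1 to aldh1a2, a breakdown gene over a synthesis gene, was lower by 0.48 in can4-/- pools (-3.66 to -3.05, against -3.21 to -2.60 in WT pools; adjusted p = 0.0254, exact permutation test). It follows largely from the rise of aldh1a2, since cyp26a1 did not pass. It does not stand for breakdown over synthesis as a whole: cyp26c1 (0.58) rose about as much as aldh1a2 (0.57), and the other synthesis gene, aldh1a3, fell (-0.90). Pools overlapped both for cyp26a1 over aldh1a2 and for cyp26c1 over cyp26a1. Each lost its call without can4-/- replicate 4 or 5 or without WT replicate 2 or 3: cyp26a1 over aldh1a2 was then at -0.50, -0.39, -0.43 and -0.43, and cyp26c1 over cyp26a1 at 0.49, 0.43, 0.41 and 0.44. Fewer pools leave fewer arrangements for the exact test, so a lost call need not mean a smaller difference. Without can4-/- replicate 4, cyp26a1 over aldh1a2 lost its call though its difference was slightly larger.

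**Figure D2:**
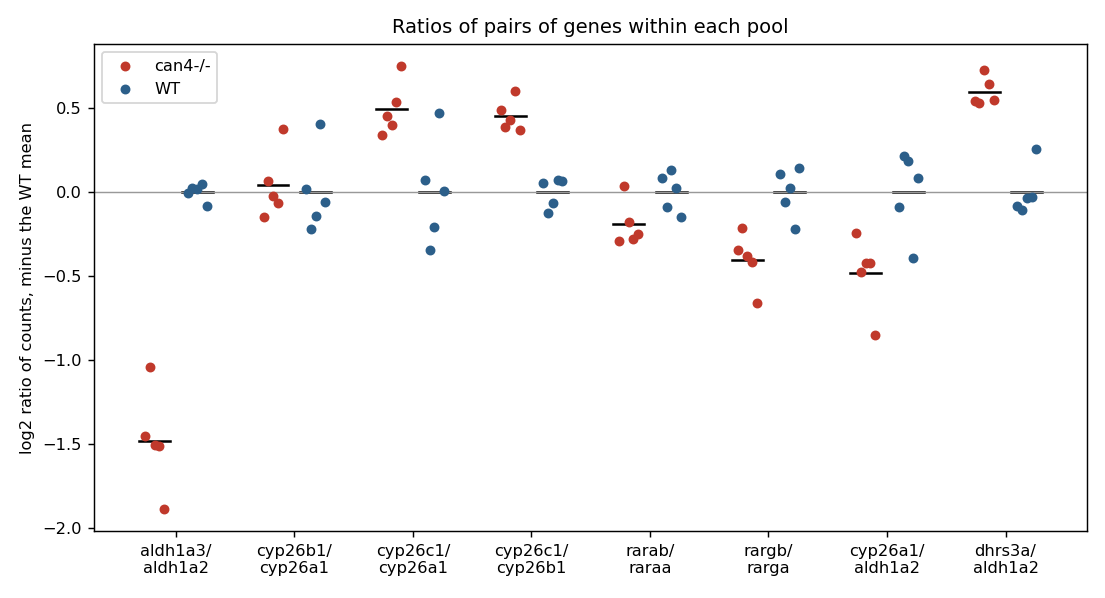
Log2 ratio of the counts of 2 genes in the same pool, minus the mean of that ratio over WT pools (vertical axis), for the 8 pairs along the horizontal axis. Points are pools (can4-/- red and left, WT blue and right) and black lines are group means. The pools lie apart for aldh1a3 over aldh1a2 (-1.48), cyp26c1 over cyp26b1 (0.46) and dhrs3a over aldh1a2 (0.60), and overlap for the other 5 pairs.

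Zebrafish keep duplicate copies of the alpha and the gamma receptor gene, and in each pair the second copy was lower in can4-/- larvae while the first did not pass the test. Of the alpha pair, rarab (ENSDARG00000034893, chr3:33065613-33259621) had 1330, 1332, 1315, 1336 and 1257 normalized counts in can4-/- pools 1 to 5, against 1640, 1584, 1625, 1634 and 1620 in WT pools 1 to 5. The 2 groups were tight and separate, with coefficients of variation of 2.51% in can4-/- and 1.34% in WT. It fell by 18.9% in can4-/- larvae (log2 fold change -0.30 ± 0.036; adjusted p = 3.26e-06, edgeR), a small change measured closely.

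The other copy, raraa (ENSDARG00000056783, chr12:10952794-11157237), had 719, 574, 658, 717 and 662 normalized counts in can4-/- pools 1 to 5, against 685, 746, 655, 712 and 795 in WT pools 1 to 5. Only 1 can4-/- pool, replicate 2, was below every WT pool. Its log2 fold change was -0.11 ± 0.070 (95% interval -0.26 to 0.042; adjusted p = 0.176, edgeR). That the copies differed in their response was not established: the log2 ratio of rarab to raraa was lower by 0.19 in can4-/- pools, with an adjusted p of 0.0544 over the 8 ratios (exact permutation test). Without can4-/- replicate 2 the difference was -0.25 (adjusted p = 0.0254, exact permutation test) and without WT replicate 5 it was -0.23 (adjusted p = 0.0454, exact permutation test), so single pools decided on which side of the threshold it lay.

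Of the gamma pair, rargb (ENSDARG00000054003, chr11:2089461-2096469) had 267, 281, 257, 230 and 223 normalized counts in can4-/- pools 1 to 5, against 381, 312, 336, 305 and 376 in WT pools 1 to 5. The genotypes did not overlap, but the highest can4-/- pool (replicate 2) came near the lowest WT pool. The gene fell by 26.3% in can4-/- larvae (log2 fold change -0.44 ± 0.089; adjusted p = 0.00049, edgeR). Its partner rarga (ENSDARG00000034117, chr23:35847200-35963735) had 2854, 2737, 2810, 2583 and 2960 normalized counts in can4-/- pools 1 to 5, against 2960, 2728, 2764, 2977 and 2847 in WT pools 1 to 5. These pools overlapped almost wholly, and the log2 fold change of -0.034 ± 0.044 had a 95% interval of -0.13 to 0.061 (adjusted p = 0.499, edgeR). Within pools, the ratio of rargb to rarga was lower by 0.40 in can4-/- larvae (0.755 of the WT ratio; adjusted p = 0.0254, exact permutation test), although the pools of the genotypes overlapped slightly.

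**Figure D3:**
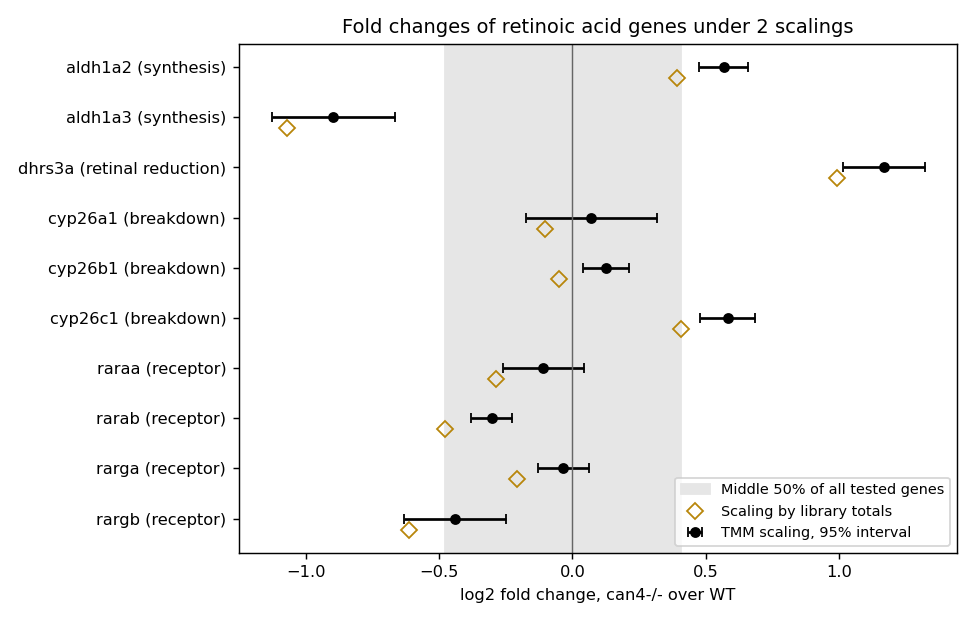
Log2 fold change of can4-/- over WT (horizontal axis) for each gene (vertical axis). Black points with bars give TMM scaling and 95% intervals, open diamonds give scaling by library totals, and the grey band holds the middle 50% of all tested genes (-0.48 to 0.41). Intervals of dhrs3a, aldh1a2, cyp26c1 and aldh1a3 lie outside the band, and every diamond lies to the left of its point.

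How libraries were scaled bore on the genes with small changes. Scaled by library totals, raraa (-0.29, adjusted p = 0.00183, edgeR) and rarga (-0.21, adjusted p = 0.000934, edgeR) passed as lower, and cyp26b1 no longer passed. The count of lower genes among the 10 was then 5 and that of higher genes 3, while 47.7% of all genes were lower and 25.7% higher. Under that scaling aldh1a2 (0.39), dhrs3a (0.99) and cyp26c1 (0.41) remained higher and aldh1a3 (-1.07), rarab (-0.48) and rargb (-0.61) remained lower. The largest change was then that of aldh1a3, which was over 2-fold, while dhrs3a was just under 2-fold.

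Read counts of near-identical or overlapping genes can be shared. No source used here names the counting program or its strand setting, and cyp26b1, cyp26c1 and rarga each overlap an annotated gene on the other strand. Those of cyp26b1 and cyp26c1 had at most 7 raw counts in any pool, and that of rarga is an rRNA gene with no row in the table used. Of the genes named further on, rdh12l, rbp7a, rbp4l, tbl1xr1a, rxraa, rxrba, rxrga, tbx2a, rlbp1b, rdh5 and pmela also overlap other annotated genes, and their counts are uncertain to that extent.

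Replicate 2 of can4-/- lay between the genotypes for several genes. On a scale where the mean of the other can4-/- pools is at 0 and the mean of WT at 100, it stood at 8.69 for top2a, 38.5 for aldh1a3, 38 for rargb, 22.7 for cyp26c1, 18.4 for dhrs3a, 14.3 for aldh1a2 and 7.21 for rarab. The pool was thus on the WT side for each of the 6 genes whose pools did not overlap. It was not always alone there. For rarab, can4-/- replicate 4 was nearer to WT (1336, against 1332 in replicate 2). For aldh1a2 and dhrs3a, replicate 1 (3253 and 522) was close to replicate 2 (3230 and 515). Among genes whose pools overlapped, replicate 2 stood at 77.5 for cyp26a1, 23.9 for cyp26b1, -120 for rarga and -386 for raraa, the last 2 away from WT. Without it the calls of the 10 genes were the same, with log2 fold changes of 0.58 for aldh1a2, 1.2 for dhrs3a, 0.61 for cyp26c1, -0.31 for rarab and -0.48 for rargb.

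Both raraa and cyp26a1 lie on chromosome 12, as does top2a (chr12:10706772-10740236). Gene raraa starts 0.246 Mb from the start of top2a and cyp26a1 at -1.75 Mb, to its other side. Larvae chosen as homozygous for the mutation also carry the same parental haplotype around it, so an effect of that haplotype and an effect of top2a loss cannot be told apart for genes this close. Of 36 genes tested within 1 Mb of top2a, 26 were called (72.2%, 16 higher and 10 lower), and of 57 within 2 Mb 43 were called (75.4%), windows that were chosen after values had been seen. Those shares lie near the 73.2% of all genes.

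**Figure D4:**
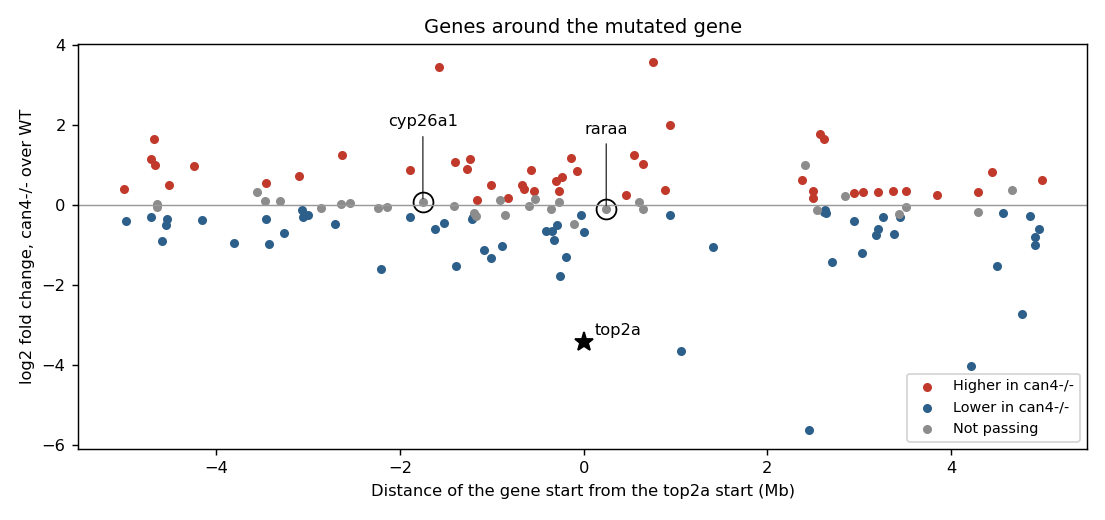
Log2 fold change of can4-/- over WT (vertical axis) of genes within 5 Mb of top2a, by the distance of their start from the top2a start (horizontal axis, Mb). Red points were higher and blue points lower in can4-/- larvae at an adjusted p of 0.05, and grey points did not pass. Genes raraa (0.246 Mb) and cyp26a1 (-1.75 Mb) are circled near 0 among genes that changed in both directions.

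The other enzymes of retinol and retinal, from a list of dehydrogenases and reductases, were split like the 10 genes. Of 14 tested, 4 were higher, 5 lower and 5 did not pass, with a median log2 fold change of -0.11. In this list 64.3% were called, beside 73.2% of all tested genes. Those higher included rdh10b, a copy of the retinol dehydrogenase that supplies retinal in the embryo (0.80 ± 0.057, 654 ± 41.5 normalized counts in can4-/- and 375 ± 14 in WT), and dhrs3b, the other copy of dhrs3a (0.80 ± 0.055, 705 ± 45.8 in can4-/- and 404 ± 12.2 in WT). Thus both dhrs3 copies were higher. The other copy of rdh10, rdh10a, was at -0.10 ± 0.037 (adjusted p = 0.0274, edgeR), a call that was lost on leaving out any of 7 single pools (can4-/- replicate 2, 3 or 4 and WT replicate 1, 2, 3 or 5; adjusted p of 0.0542 to 0.0791). Largest in the list were rdh12l, a relative of retinol dehydrogenase 12 (1.2 ± 0.13), and rdh12, known for reducing retinal in photoreceptors (-0.85 ± 0.074). The alcohol dehydrogenases adh8b (-0.32 ± 0.083) and adh5 (-0.27 ± 0.057) were lower. With library totals, 9 genes of the list were lower.

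Of 23 genes tested for binding, uptake and storage of retinoids, 8 rose, 10 fell and 5 did not pass (median log2 fold change -0.19). That was 78.3% called, beside 73.2% of all tested genes. The proteins of 4 cellular retinoic acid binding genes hold retinoic acid in the cytoplasm. Of these genes 3 were higher, beside 36.3% of all tested genes. Genes crabp2b (1.03 ± 0.061), crabp2a (0.85 ± 0.049) and crabp1b (0.62 ± 0.047) rose and crabp1a (-0.49 ± 0.099) fell. All but crabp2b were named after their values had been seen. The retinol uptake receptor gene stra6 was also higher (1.01 ± 0.063, 2878 ± 300 normalized counts in can4-/- and 1429 ± 36.2 in WT), as was rbp7a, of the cellular retinol binding family (1.0 ± 0.20).

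On the lower side were the 3 tested copies of lecithin retinol acyltransferase, which stores retinol as esters: lrata (-0.52 ± 0.086), lratb.1 (-0.47 ± 0.10) and lratb.2 (-1.56 ± 0.34). The last 2 overlap on one strand and may share reads. On the same strand lratb.1 also overlaps si:ch73-132f6.5, which had 476 normalized counts in can4-/- and 522 in WT. Gene lratb.2 had few counts, with means of 12.5 in can4-/- and 37.0 in WT. Its pools overlapped (5.92 to 24.7, against 22.5 to 48.1). Also lower were ttr, whose protein carries thyroid hormone and in mammals binds the retinol carrier of blood (-2.84 ± 0.27), rbp4l (-1.46 ± 0.079), the cellular retinol binding gene rbp2b (-0.90 ± 0.13) and rbp4, the retinol carrier of blood (-0.22 ± 0.064). With library totals, 5 genes of this list were higher.

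Among the partners of the receptors, 5 of 6 retinoid X receptor genes were lower and 1 was higher (median log2 fold change -0.27). For comparison, 36.9% of all tested genes were lower and 36.3% higher. The X receptor gene that rose was rxrab (0.82 ± 0.087, 296 ± 30.6 normalized counts in can4-/- and 169 ± 12.8 in WT). Those that fell were rxrgb (-0.62 ± 0.11), rxrbb (-0.45 ± 0.042), rxrga (-0.35 ± 0.089), rxraa (-0.19 ± 0.062) and rxrba (-0.16 ± 0.042). Gene rxrgb overlaps atf6 on the other strand, and its counts are uncertain for that reason.

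Of 18 coactivators and corepressors of the receptors, 11 were lower, 1 was higher and 6 did not pass, with a median of -0.18. Here 66.7% were called, beside 73.2% of all tested genes, and 36.9% of all tested genes were lower. The acetyltransferase genes kat2b (-0.61 ± 0.070) and ep300b (-0.35 ± 0.047) and the corepressor subunit gene tbl1xr1a (-0.38 ± 0.042) fell. With library totals, 17 genes of this list were lower and 0 higher.

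**Figure D5:**
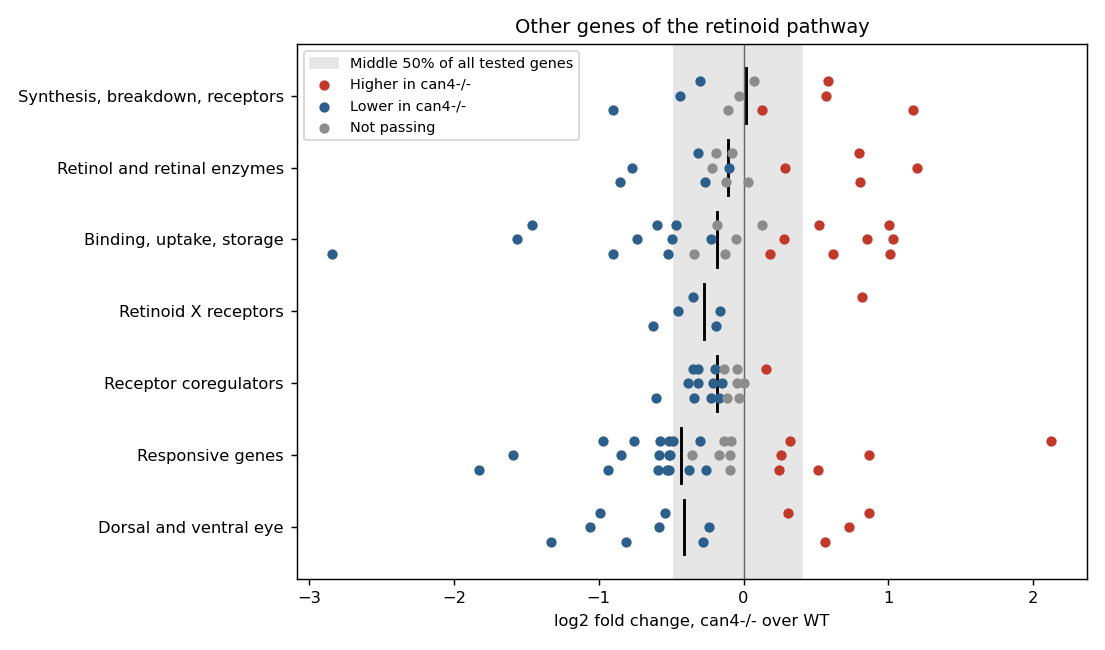
Log2 fold change of can4-/- over WT (horizontal axis) of each tested gene in the 10 genes described here (top) and in related lists (rows). Red points were higher, blue points lower and grey points did not pass at an adjusted p of 0.05, black ticks are list medians and the grey band is the middle 50% of all tested genes. The coregulators lie close together, mostly left of 0 (median -0.18), while the binding, uptake and storage genes run from -2.84 to 1.03.

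Genes known to respond to retinoic acid in the hindbrain and foregut were lower more often than higher. Of 30 tested, 18 were lower, 6 were higher and 6 did not pass (median -0.43, beside 0.0027 for all genes). Among all tested genes, 36.9% were lower and 36.3% higher. Neuron markers had a median of -0.84, and the part of neurons in the values of this list was not tested. Hox genes made up 15 of the 30, with 10 lower, 2 higher and 3 not passing. Among these Hox genes, hoxb5a (-0.97 ± 0.066), hoxd4a (-0.59 ± 0.080) and hoxb4a (-0.49 ± 0.083) fell, while hoxa1a (0.52 ± 0.11) was higher. All 4 of these overlap another annotated gene, hoxb5a and hoxb4a sharing a strand with hoxb3a and hoxd4a with hoxd3a, and may share reads with it. Gene hoxb1b was at 0.24 ± 0.084 (adjusted p = 0.0187, edgeR) and at 0.069 with library totals (adjusted p = 0.473, edgeR).

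Of the orphan receptor genes of the COUP-TF family in this list, 3 of 4 were lower, among them nr2f1b (-1.83 ± 0.13) and nr2f1a (-0.94 ± 0.057). The largest increase of the list was in tgm2b, a transglutaminase gene whose mammalian counterpart responds to retinoic acid (2.13 ± 0.052, 5830 ± 384 normalized counts in can4-/- and 1334 ± 52.8 in WT). Next came tbx5a, a gene of the pectoral fin, the heart and the dorsal eye (0.87 ± 0.14). So within this list of targets there were changes in both directions. Gene cyp26a1, often read as a gauge of the signal, is not in the list. It did not pass, and its interval of -0.18 to 0.32 leaves room for a modest change in either direction. Other genes of the pathway are also outside the list: dhrs3a (1.17), dhrs3b (0.80), crabp2a (0.85) and stra6 (1.01) rose, and lrata (-0.52) fell. How these respond to retinoic acid was not examined, so the list is not a full readout of the signal. Whether the signal itself changed was not tested.

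All 12 tested genes of the dorsal and ventral eye, where aldh1a2 and aldh1a3 have their separate domains, were called, beside 73.2% of all tested genes. Of 7 dorsal genes 3 were higher and 4 lower, and of 5 ventral genes 1 was higher and 4 were lower. Of the dorsal genes, gdf6a, a bone morphogenetic protein family gene (0.73 ± 0.054), bambia, which restrains such signals (0.56 ± 0.042), and tbx5a rose. The other dorsal genes fell: the T-box genes tbx2a (-0.58 ± 0.041) and tbx2b (-0.54 ± 0.046) and the ephrin genes efnb1 (-0.28 ± 0.052) and efnb2a (-0.24 ± 0.039). The ventral transcription factor genes vax1 (-1.33 ± 0.11) and vax2 (-0.99 ± 0.13) fell, vax1 to 143 ± 26.9 normalized counts in can4-/- larvae, against 362 ± 27.9 in WT. So did the Eph receptor genes ephb2b (-1.06 ± 0.083) and ephb3a (-0.81 ± 0.063), while the guidance gene ntn1a rose (0.31 ± 0.039). Neither side of the eye moved as a whole in one direction. These genes are also used outside the eye.

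Markers of whole tissues moved with the genotype as well, beside 36.3% of all tested genes higher and 36.9% lower. All 19 photoreceptor genes were lower in can4-/- larvae (median log2 fold change -5.45). Their summed level was 22.2 to 54.9 CPM in can4-/- pools, against 1857 to 2991 in WT pools. CPM here and below are counts scaled to the library size times its TMM factor, not to library totals alone. These factors were 0.929 to 0.959 in can4-/- pools and 1.04 to 1.07 in WT pools. Scaled by library totals, sums would be lower in can4-/- pools and higher in WT pools, so whether close ranges overlap may depend on scaling. The opsin genes opn1mw1, opn1sw1 and opn1lw1 had 0 counts in at least 1 can4-/- pool, and opn1mw1 had 0 to 15.4 normalized counts in can4-/- pools, against 7710 to 15138 in WT pools. In WT pools opn1sw1 had 10666 to 18133, but opn1lw1 only 24.3 to 42.8, so a count of 0 means less for opn1lw1. All 13 inner retina and ganglion cell genes were lower (median -2.15; 257 to 324 CPM in can4-/-, against 694 to 778 in WT), as were 11 of 12 genes of retinal progenitors (median -1.74; 736 to 867, against 1072 to 1162). In the progenitor list ccnd1, which rose, had the most counts in can4-/- (means of 10279 normalized counts, against 7203 in WT). Genes also in the list of cycling cells had the most in WT (means of 13565 and 9749, against 7442 and 7115.5 in can4-/-). These genes weighed most in the sum, which is therefore not particular to the retina. In the pigment epithelium list 5 of 11 genes were higher and 6 lower (689 to 811 CPM in can4-/-, against 553 to 660 in WT). Those higher included the melanin genes dct (0.60 ± 0.076), pmela (0.53 ± 0.050) and tyrp1b (0.35 ± 0.060), which pigment cells of the skin also use. Gene pmela had the most counts of this list (means of 10667 normalized counts in can4-/- and 7376 in WT) and weighed most in its sum. The visual cycle genes rpe65a (-0.70 ± 0.20), rlbp1b (-0.85 ± 0.14), rgra (-1.39 ± 0.13) and rdh5 (-0.55 ± 0.11) were lower, as were lrata and ttr.

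Beyond the eye, 13 of 15 neuron genes were lower and 1 higher (1065 to 1222 CPM in can4-/-, against 2135 to 2259 in WT), 15 of 16 genes of cycling cells were lower (1022 to 1230, against 1622 to 1769), and 7 of 11 cartilage and bone genes were lower and 1 higher (1294 to 1666, against 1801 to 2317). Fin genes were higher in 7 of 9 cases and lower in 2 (856 to 1040, against 925 to 1093), with hoxd13a at 1.67 ± 0.15. Under TMM scaling, the summed ranges of the fin genes overlapped. Gene and2, with the most counts of them, fell (means of 12857 normalized counts in can4-/- and 18199 in WT). Muscle genes were higher in 8 of 11 cases and lower in 1 (15670 to 20190, against 11280 to 13370). Epidermis genes were higher in 9 of 10 and lower in 1 (28320 to 31410, against 17530 to 21500), and liver and gut genes were 4 higher and 4 lower of 10 (6152 to 7453, against 4942 to 5628). In the liver and gut list, an apolipoprotein gene that rose had the most counts and weighed most in the sum. Its means were 153200 normalized counts in can4-/- and 95954 in WT. In the epidermis list a keratin gene that rose weighed most in the sum, with means of 758460 in can4-/- and 491380 in WT. No marker was at 0 in all pools. The part of these tissue shifts in the values of the retinoic acid genes was not tested.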

How the data were processed

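Total RNA of whole 3 dpf larvae was made into strand-keeping libraries after rRNA removal. The authors aligned the reads with STAR and deposited raw counts per gene as whole numbers, not normalized (STAR 2.7.0f, MultiQC, DESeq2 1.24.0 and GRCz11 are named in the submitters' processing notes). No source used here names the program that counted reads or its strand setting. Names and positions came from the annotation table deposited with the counts (Ensembl). The authors' comparison table (log2 fold changes and p-values) and their normalized and rlog values were not used.

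Counts were analysed in R 4.3.3. Genes were kept by filterByExpr (minimum count 10, minimum total 15), scaled by TMM and tested with edgeR 4.0.16 (quasi-likelihood, genotype only, Benjamini-Hochberg adjustment over 23039 genes, threshold 0.05). The biological coefficient of variation was 9.59%. Ratios were log2 of counts plus 0.5 in the same pool, compared by exact permutation over 8 ratios. Pools of a genotype came from separate larvae, and their counts differed by more than sampling noise in all 20 pairs (chi-square per degree of freedom 4.625 to 25.83), so each counted as 1 replicate. Pools with the same replicate number did not deviate together (correlations -0.016 to 0.031), so the numbers do not pair them. The coefficient of variation expected from counting alone covers counting error only.

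Named genes were the 10 genes, top2a and top2b, and of each pathway list the 3 largest increases and decreases (of each marker list the largest of each) among calls with a mean of at least 50 normalized counts. In addition rdh10a, crabp2a, crabp1b, crabp1a, lrata, lratb.1, lratb.2, rxraa, rxrba, gdf6a, bambia, vax2, rbp4, hoxb4a, hoxd4a, hoxb1b, tbx2a, tbx2b, efnb1, efnb2a, ntn1a, ephb2b, ephb3a, rpe65a, rlbp1b, rgra, rdh5, pmela and tyrp1b were named after their values had been seen, as were the opsins at 0 counts. Genes that the rule gives from the marker lists are printed only in part, and not every gene the rule gives is reported here. The 10 genes and all lists were chosen with earlier results of these data known. The alternatives were RLE factors, library totals, DESeq2 1.42.0, voom (limma 3.58.1), no filter, a stricter filter (50 or more counts in each pool of either genotype), a replicate block, a pseudocount of 5 for ratios, and leaving out each pool in turn. Leaving out can4-/- replicate 2 and WT replicate 1 together was added after the data were seen. Levels were not compared between genes, since transcript lengths were not used here.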

Additional observations from a re-analysis of the deposited data

Results flagged for a closer look

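In 7 of 40 groups of 5 pools looked at, 1 pool lay apart from the other 4 by more than 0.71 of the group's range, Dixon's limit for 5 values, where chance gives about 1 in 20 groups. For top2a these were can4-/- replicate 2 (1358 normalized counts) and WT replicate 1 (9082). Pool 5 of can4-/- stood apart for aldh1a2 (3667) and rarab (1257). Pool 5 of WT, a separate library that only shares the number, stood apart for dhrs3a (284.5), aldh1a3 (249.6) and the log2 ratio of dhrs3a to aldh1a2 (-2.921), which holds the same dhrs3a count. For dhrs3a and aldh1a3 that WT pool was the one nearest to the can4-/- pools, and for aldh1a2 and rarab the can4-/- pool was the one farthest from WT. The cause was not tested.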

How the results depend on the processing

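Of 1511 values of 84 named genes under the alternatives, 1496 kept their direction and their side of the threshold, and of 684 counts of calls 6 moved by more than 1.5 times. All 6 came with library totals: 5 of the 10 genes lower (3 with TMM), 9 retinol and retinal enzymes lower (5), 5 binding, uptake and storage genes higher (8), 0 coregulators higher (1) and 17 lower (11), and 2 muscle genes lower (1). Signs turned with library totals for cyp26a1 (-0.10) and cyp26b1 (-0.048), and for cyp26a1 without WT replicate 4 (-0.016; its range over single omissions was -0.016 to 0.13). The ratio of cyp26b1 to cyp26a1, which did not pass, ran from -0.044 to 0.14 when single pools were left out, turning without can4-/- replicate 5 (-0.044) or WT replicate 2 (-0.014). Over the same omissions cyp26a1 over aldh1a2 ran from -0.58 to -0.39, cyp26c1 over cyp26a1 from 0.41 to 0.62 and rarab over raraa from -0.25 to -0.16. Leaving out can4-/- replicate 2 and WT replicate 1 together, an alternative chosen after the data were seen, changed no call among the named genes but that of rdh10a (-0.084, adjusted p = 0.0860, edgeR). A replicate block (pools paired by number, which the data do not bear out) left 8179 genes higher and 8344 lower, changed no call of the 10 genes and cost only rdh10a its call among the named genes (-0.10, adjusted p = 0.0554). In the paired test of ratios (exact sign flips over 5 pairs, smallest p 0.0625) no ratio could pass, by construction. In that test -1.48, -0.48, 0.50, 0.46, 0.60 and -0.40 for aldh1a3/aldh1a2, cyp26a1/aldh1a2, cyp26c1/cyp26a1, cyp26c1/cyp26b1, dhrs3a/aldh1a2 and rargb/rarga each had an adjusted p of 0.0833. Depth limited aldh1a3 most, where counting alone gives a spread of 8.77% in can4-/- pools.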
